A study of Mus musculus with 30 samples.

Results

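Chromatin accessibility was measured by ATAC-seq, in which a transposase cuts open DNA, at 34 genes for integrins, other adhesion molecules, receptors that position T cells in tissue and the proteins that switch integrins on. A peak was assigned to the protein-coding gene whose body lay nearest to it, within 100 kb, and every peak assigned to one of the 34 genes was kept. This gave 289 of the 69316 peaks of the deposited table, all 401 bp long and placed on mm10. Each of the 34 genes had at least 1 peak, and 187 peaks lay in a gene body, 17 at a promoter, 44 upstream of the gene, 16 downstream and 25 outside genes whose strand was not known here. Gene starts were known here for 24 of the 34 genes, so peaks at starts of the others are counted as gene body or outside. Distances in kb run from the nearest listed start, which at some genes, among them Itgav, Itga9 and Apbb1ip, lies inside the gene body. A tie between a member and another gene applied to 9 peaks, among them all 5 of Gpr183, which lie inside Ubac2, and 2 of Itgae, which are shared with Haspin.

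The 26 libraries formed 13 groups of 2, all from CD4+ T cells of mouse lymph nodes and spleen. Regulatory T cells (Treg) depend on the transcription factor Foxp3, and all mice carried a human CD2 (hCD2) reporter placed in the Foxp3 gene, so hCD2 marked cells that use this gene. From Foxp3-IRES-hCD2 mice came effector Treg (eTreg, CD4+hCD2+CCR7loCD62Llo), effector conventional cells (Teff, CD4+hCD2-CCR7loCD62Llo), central Treg (cTreg, CD4+hCD2+CCR7hiCD62LhiCD44lo) and naive conventional cells (Tnaive, CD4+hCD2-CCR7hiCD62LhiCD44lo). Mice of this genotype also gave all Treg (WT Treg, CD4+hCD2+) and all conventional cells (Tconv, CD4+hCD2-). Treg without the AP-1 family factor BATF (BATFKO) were CD4+hCD2+ cells of Foxp3-IRES-hCD2.Batf-/- mice, and their comparison was WT Treg. Treg with the Foxp3 variant R397W were CD4+hCD2+GFP- cells of Foxp3R397W-IRES-hCD2/Foxp3-IRES-GFP mice, set against cells of the same sort from Foxp3WT-IRES-hCD2/Foxp3-IRES-GFP mice (R397W control). The groups named so far were labelled C57BL6/J. In the last 4 groups, cells with the genotype Foxp3KO-IRES-hCD2.Batf-/- (DKO, lacking both factors), sorted as hCD2+ CD4+ cells that were CD45.2+CD45.1- and GFP+Thy1.1+, had received retroviruses for both Foxp3 and BATF, for BATF, for Foxp3 or without either factor (mock). The column names of these libraries also hold the term vivo, which they do not explain. The titles give omniATAC-seq for the R397W, R397W control and DKO libraries and ATAC-seq for the others, so the protocol was the same on both sides of each comparison between groups. No label says that the libraries of a group came from separate animals, so p-values measure the spread between these libraries, which may be technical.

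The names of 6 groups need care. A companion table of 22 libraries shares 18 libraries with the table used here, recognised by equal reads in at least 98.0% of shared peaks, and 12 of the 18 carry other names there: eTreg is named Foxp3WT control, cTreg Foxp3R397W, Teff Foxp3KO, Tnaive Foxp3WT KO control, R397W eTreg, and R397W control cTreg. The names of the 26-library table are used throughout. The column names of the R397W control libraries give wild-type Foxp3 Treg without saying which mutant they were the control for, and they were read as the R397W control because the table holds R397W and no Foxp3KO columns. At the highest-scoring Foxp3 peak (chrX:7583922-7584322), the libraries named eTreg scored 381 and 363 and those named Teff 7.84 and 7.83. The libraries named cTreg scored 435 and 370 there, and those named Tnaive 1.28 and 9.07. The summed score of the Ccr7 peaks, a gene whose product was a sorting marker, was 703 in eTreg against 1929.5 in cTreg, 876 in Teff against 2669.7 in Tnaive, and 4810.6 in R397W against 3582.4 in R397W control. Libraries held 3716499 to 25462278 reads in peaks, and a single read was worth 0.353 to 2.27 units of the deposited score. All 4 T cell marker genes (Cd3e, Cd3g, Cd4 and Cd5) had peaks, with a summed score from 2447.4 to 8831.2 over libraries. A pair of Batf peaks, picked after their values were seen, had 0 reads in both BATFKO libraries and 0 to 8 in each DKO group, summed over its 2 libraries. Among B cell genes Pax5 had peaks, whose summed score ran over libraries from 25.5 to 442, and Cd79a and Ms4a1 had none. Of the 6 myeloid marker genes 3 had peaks, with Csf1r, Adgre1 and Cd68 having none, and their summed score ran from 351 to 789.

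Integrins are pairs of an alpha and a beta chain that hold a T cell to matrix or to other cells, and the pair decides the ligand. Circulating naive cells rely on lymph node entry receptors, and antigen-experienced cells carry more of the integrins and chemoattractant receptors that serve tissue entry and retention. In Treg, the pair of Itgav and Itgb8 is known for releasing active TGF-beta from its latent complex. Integrins are kept inactive until signals inside the cell, through the guanine nucleotide exchange factor Rasgrp2, the small GTPase Rap1a, the adaptor Apbb1ip (RIAM), talin (Tln1) and kindlin-3 (Fermt3), open them.

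Promoters could be matched for 24 of the 34 genes in a RefSeq table on GRCm38.p6, the assembly that mm10 denotes. The 4 shown here belong to genes whose promoter peak is described with its values, although promoter peaks of other members also differed between groups. Each runs from 250 bases before the gene start to 50 bases after it, 5′ to 3′ on the strand of the gene. The first transcribed base is in capitals, as are matches to the motifs searched.
Gpr15 (chr16:58718823-58719122, minus strand): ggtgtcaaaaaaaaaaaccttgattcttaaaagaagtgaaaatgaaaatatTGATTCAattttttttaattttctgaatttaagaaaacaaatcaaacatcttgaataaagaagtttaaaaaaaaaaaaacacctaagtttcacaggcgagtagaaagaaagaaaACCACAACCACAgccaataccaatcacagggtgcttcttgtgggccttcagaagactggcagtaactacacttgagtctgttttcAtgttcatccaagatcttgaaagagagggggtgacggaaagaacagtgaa
Itgam (chr7:128062390-128062689, plus strand): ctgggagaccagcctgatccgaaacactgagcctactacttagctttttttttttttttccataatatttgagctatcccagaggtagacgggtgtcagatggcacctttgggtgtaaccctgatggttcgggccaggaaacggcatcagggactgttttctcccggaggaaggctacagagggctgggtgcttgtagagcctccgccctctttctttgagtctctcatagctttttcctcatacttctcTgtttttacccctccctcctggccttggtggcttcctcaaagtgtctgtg
Rasgrp2 (chr19:6399625-6399924, plus strand): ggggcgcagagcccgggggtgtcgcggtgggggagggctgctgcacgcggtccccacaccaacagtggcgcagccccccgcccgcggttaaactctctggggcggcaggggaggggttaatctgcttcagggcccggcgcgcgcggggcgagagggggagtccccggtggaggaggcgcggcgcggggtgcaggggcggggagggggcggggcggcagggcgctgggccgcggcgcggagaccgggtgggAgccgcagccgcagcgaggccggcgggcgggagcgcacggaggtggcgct
Itgb1 (chr8:128685404-128685703, plus strand): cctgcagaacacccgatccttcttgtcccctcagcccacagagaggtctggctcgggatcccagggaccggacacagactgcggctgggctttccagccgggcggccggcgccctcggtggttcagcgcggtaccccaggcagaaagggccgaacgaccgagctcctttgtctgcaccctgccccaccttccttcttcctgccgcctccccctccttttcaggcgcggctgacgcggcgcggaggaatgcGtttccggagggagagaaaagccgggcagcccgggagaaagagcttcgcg
On both strands, the AP-1 motif TGANTCA was found in 7.81% of 32851 promoters, the forkhead motif TGTTTAC in 3.65%, the RUNX motif TGTGGT in 16.8% and the ETS motif CCGGAAGT in 3.89%. Among the 27 promoters of member genes, 4 held the AP-1 motif, 5 the RUNX motif, 0 the forkhead motif and 0 the ETS motif. The Gpr15 promoter held 1 AP-1 match, 199 bases before the gene start and 19 bases outside its promoter peak, and 2 RUNX matches on the other strand inside the peak, 85 and 79 bases before the start. The Itgam, Rasgrp2 and Itgb1 windows held none of these letters. These are matches of letters and say nothing of binding.

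Differences in the deposited score were tested with limma on log2(score + 1) over all 69316 peaks, and a peak was called where its Benjamini-Hochberg adjusted p was under 0.05. A log2 difference is that of the first group named minus the second. In these bulk libraries, a change in the share of cells with an open site and a change in openness per cell cannot be told apart. Calls at members ran in both directions in the large comparisons, and the median log2 difference over the 289 peaks stayed near 0, at 0.04 for eTreg against cTreg, beside 0.03 over all peaks, and at 0.03 for Teff against Tnaive, beside -0.01 over all peaks. The direction differed from gene to gene: at Itgav all calls were higher in eTreg than in cTreg and in Teff than in Tnaive, and at Itga4 and Itga9 most were lower there.

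**Figure D1:**
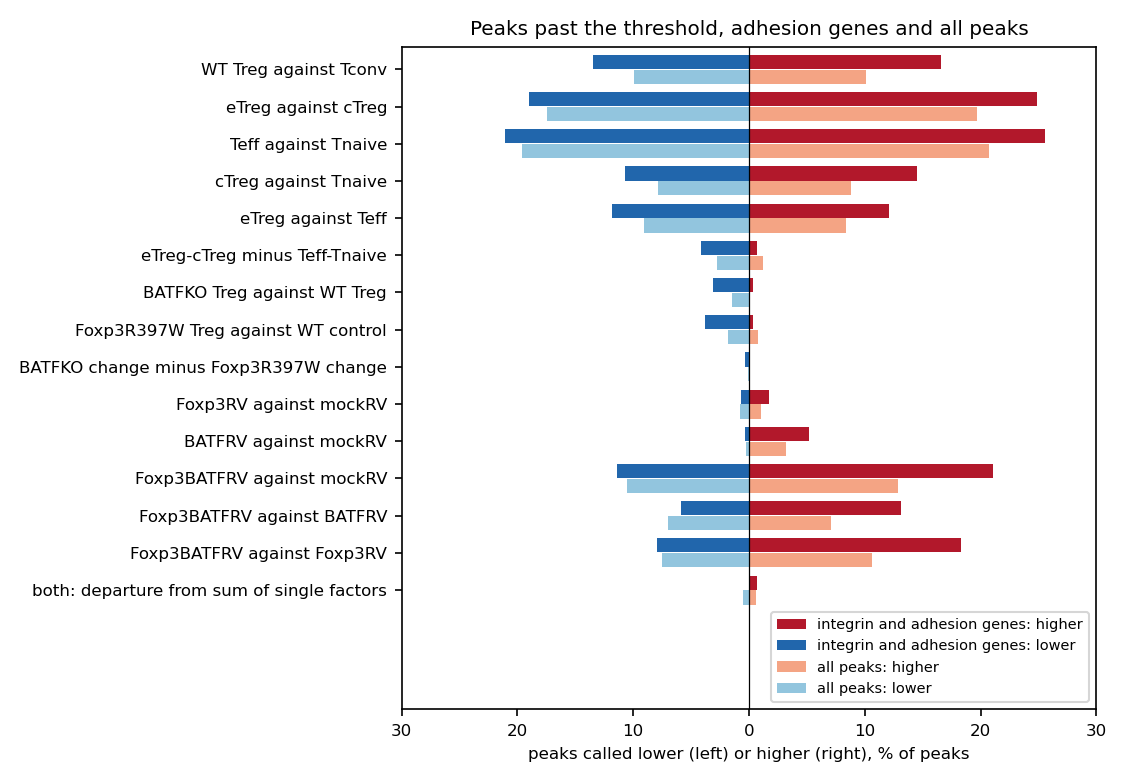
Percent of peaks called with limma (adjusted p under 0.05) in each of the 15 comparisons, higher to the right of 0 and lower to the left, for the 289 peaks of integrin and adhesion genes and for all 69316 peaks. The member share was 43.9% beside 37.1% of all peaks for eTreg against cTreg and 3.46% beside 1.49% for BATFKO against WT Treg.

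**Figure D2:**
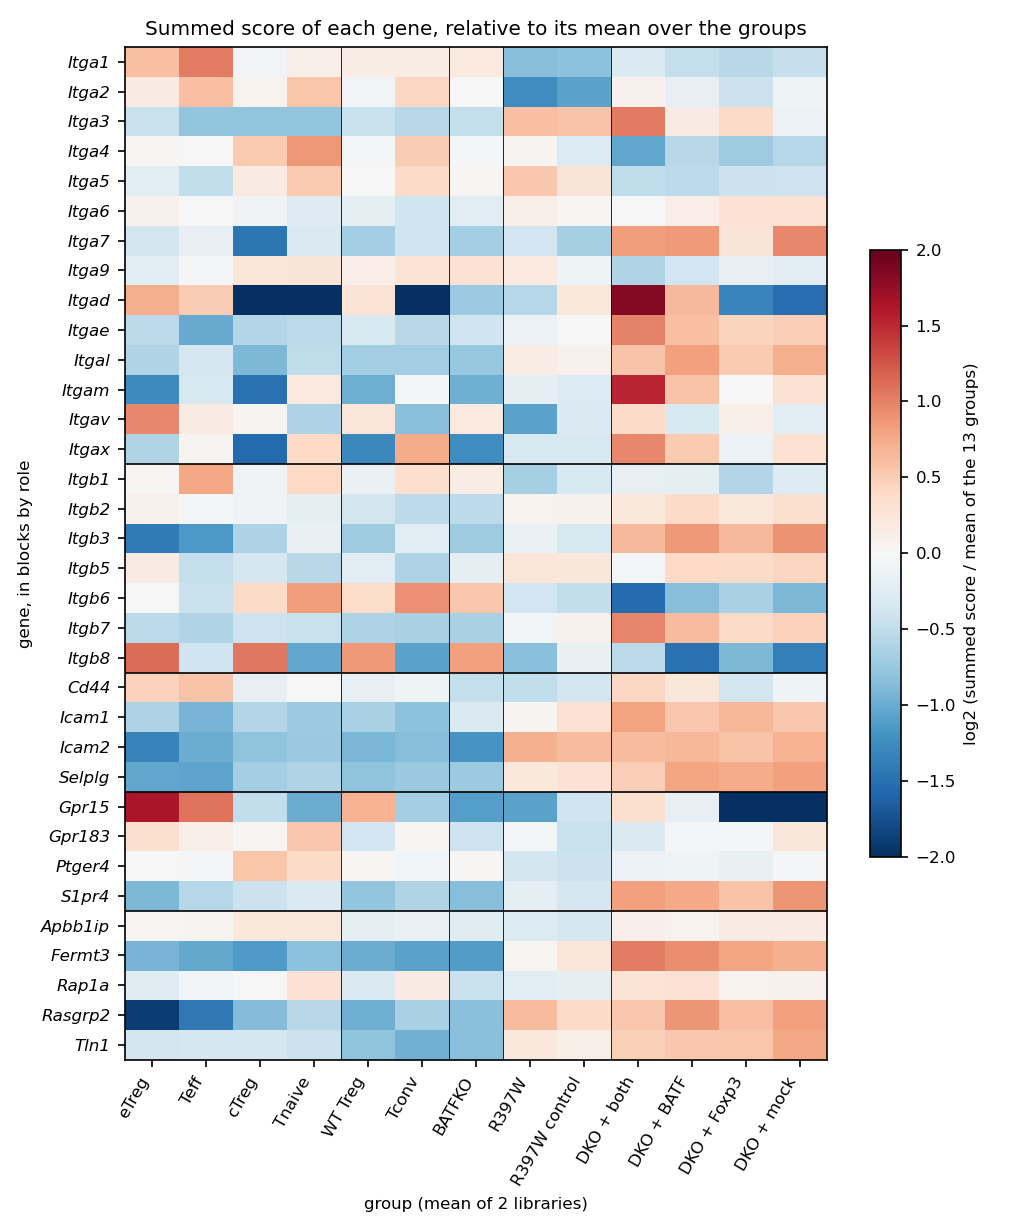
Summed score of the peaks of each of the 34 genes in each group, as the log2 ratio to the gene's mean over groups, with colours limited at -2 and 2; rows are genes ordered by role and columns are groups, each the mean of 2 libraries. The R397W, R397W control and DKO libraries used another ATAC protocol than the rest. Itgav stands high in eTreg, Itgb8 in eTreg and cTreg, Gpr15 in eTreg and Teff, and Itgam in DKO cells with both factors.

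Treg and conventional cells were compared in 3 ways, as whole populations, in the central and naive state, and in the effector state. WT Treg against Tconv gave 48 higher peaks (16.6% of members, beside 10.1% of all peaks) and 39 lower (13.5% beside 9.92%), 30.1% in both directions beside 20%. The comparison of cTreg with Tnaive gave 42 higher (14.5% beside 8.8%) and 31 lower (10.7% beside 7.82%), 25.3% in both directions beside 16.6%. The comparison of eTreg with Teff gave 35 higher (12.1% beside 8.4%) and 34 lower (11.8% beside 9.07%), 23.9% in both directions beside 17.5%. The higher calls concentrated at Itgav, with 9 of 17 peaks in WT Treg against Tconv, 9 in cTreg against Tnaive and 6 in eTreg against Teff, and at Itgb8, with 8 of 11 peaks in each comparison. No Itgav or Itgb8 peak was called lower in any of the 3 with limma or edgeR. Leaving out 1 library moved 2 of these counts by over 1.5 times: the 87 calls of WT Treg against Tconv became 53 without WT Treg replicate 1, 56 without WT Treg replicate 2 and 50 without Tconv replicate 2, and the 69 of eTreg against Teff became 39, 40, 44 and 36 without eTreg replicate 1, eTreg replicate 2, Teff replicate 1 and Teff replicate 2.

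Itgav encodes the alpha v chain. Its peak at chr2:83695367-83695767, 28.8 kb upstream of the listed start, scored 270 and 245 in WT Treg against 16.3 and 20.4 in Tconv, a log2 difference of 3.74 (SE 0.23, adjusted p = 2.1e-12). In sorted states it scored 522 and 460 in eTreg, 67.9 and 65.5 in Teff, 137 and 127 in cTreg, and 7.66 and 13 in Tnaive. Both kinds of Treg stood above both kinds of conventional cells, with no overlap of libraries, and the log2 difference was 2.86 for eTreg against Teff (SE 0.23, adjusted p = 5.4e-10). A neighbour at chr2:83700644-83701044, 23.6 kb upstream, scored 314 and 333 in cTreg against 10.2 and 15.5 in Tnaive, a log2 difference of 4.57 (SE 0.23, adjusted p = 7e-15). Summed over its 17 peaks, Itgav scored 3873.8 ± 22.8 in eTreg, 2228.1 ± 143 in Teff, 2068.2 ± 83.3 in cTreg and 1296.2 ± 41.4 in Tnaive (SD, n = 2 each).

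Itgb8 encodes the beta chain that pairs with alpha v. Its intragenic peak at chr12:119204378-119204778, 33.7 kb from the gene start, scored 325 and 264 in WT Treg against 6.53 and 25 in Tconv, and the log2 difference was 4.39 (SE 0.40, adjusted p = 1.3e-08). It scored 296 and 262 in eTreg, 47.9 and 48.9 in Teff, 267 and 327 in cTreg, and 3.83 and 14.3 in Tnaive. The eTreg and cTreg libraries overlapped, and among conventional cells the effector libraries were the higher ones. The difference was 5.11 for cTreg against Tnaive (SE 0.40, adjusted p = 5e-10) and 2.5 for eTreg against Teff (SE 0.40, adjusted p = 5.9e-05). The summed Itgb8 score was 1796.4 ± 51.1 in eTreg, 628 ± 40.9 in Teff, 1727.6 ± 322 in cTreg and 405 ± 17.8 in Tnaive (SD, n = 2 each).

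Of the 39 member peaks lower in WT Treg than in Tconv, 24 lay at alpha chains (17% of their 141 peaks) and 5 at beta chains (9.26% of 54). Ligands and other adhesion molecules held 3 (9.38% of 32), positioning receptors 2 (9.09% of 22) and genes of inside-out activation 5 (12.5% of 40). The share over all peaks was 9.92%. Itga9 encodes a chain that binds matrix proteins such as tenascin, and its peak at chr9:118884453-118884853 scored 8.55 and 17.4 in WT Treg against 94.7 and 105 in Tconv (log2 -2.92, adjusted p = 0.0033). Itga4, whose chain pairs with β1 or β7 for adhesion to endothelium, had 8 of 16 peaks lower and 1 higher in WT Treg than in Tconv. At the promoter of Itgam, an alpha chain best known from myeloid cells (chr7:128062453-128062853), cTreg scored 8 and 5.51 against 43.4 and 63.5 in Tnaive (log2 -2.81, adjusted p = 0.00017). The Gpr15 promoter peak (chr16:58718646-58719046) was also lower in cTreg, with 22.2 and 32 against 130 and 113 in Tnaive, a log2 difference of -2.14 (SE 0.34, adjusted p = 2.5e-05). Gpr15 is a receptor that guides T cells to the large intestine. Among the 4 genes of inside-out activation other than Rap1a, Apbb1ip alone had calls in WT Treg against Tconv, 3 higher and 2 lower.

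The effector step was read in Treg (eTreg against cTreg) and in conventional cells (Teff against Tnaive). In Treg 72 member peaks (24.9%, beside 19.7% of all peaks) were higher and 55 (19% beside 17.4%) lower, 43.9% in all beside 37.1%. In conventional cells 74 (25.6% beside 20.7%) were higher and 61 (21.1% beside 19.6%) lower, 46.7% in all beside 40.3%. These comparisons share no library. Of the higher peaks 47 were common, 65.3% of the 72 and 63.5% of the 74, beside 70.4% and 66.8% over all peaks. Of the lower peaks 39 were common, 70.9% of the 55 and 63.9% of the 61, beside 71.4% and 63.3% over all peaks. Some markers of other cell types differed along both steps. The summed score of the Cd8b1 peaks, a gene of the CD8 coreceptor, was 92.3 in eTreg against 402 in cTreg and 43.5 in Teff against 453 in Tnaive, and that of the Cd8a peaks was 31.5 against 139 and 17.7 against 99. The peaks of the B cell gene Pax5 ran the other way, with 319 in eTreg against 76.2 in cTreg and 257 in Teff against 34.8 in Tnaive. Klrb1c and Ncr1, listed with Cd8a and Cd8b1 as CD8 and NK markers, did not follow them in both steps. Klrb1c summed to 1423.0 in eTreg against 1435.2 in cTreg, and to 1464.4 in Teff against 1978.5 in Tnaive. Ncr1 was higher in effector cells, with 18.2 against 10.2 and 25.6 against 18.0. Over the 4 CD8 and NK marker genes, all of which had peaks, the summed score per library was 1516.9 to 1613.2 in eTreg against 1883.5 to 2090.2 in cTreg, and 1487.0 to 1615.4 in Teff against 2336.1 to 2761.2 in Tnaive. Their part in the counts was not tested. CD44 was used to sort cTreg and Tnaive as CD44lo, so the values of the Cd44 gene are not independent of the sort.

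Among alpha chains, the collagen-binding chain Itga1 had peaks that were higher in effector cells. An Itga1 peak at chr13:115107427-115107827, 5.7 kb upstream, scored 87.5 and 53.8 in eTreg against 1.78 and 1.1 in cTreg (log2 4.85, SE 0.48, adjusted p = 4.2e-09). In Teff the same peak scored 89.7 and 61.6, against 1.28 and 5.18 in Tnaive. Effector libraries of both lineages overlapped and lay above all resting libraries. A second Itga1 peak, at chr13:115096988-115097388, scored 152 and 185 in Teff against 3.83 and 1.3 in Tnaive (log2 5.66, SE 0.49, adjusted p = 2.1e-10), and 43.2 and 46.8 in eTreg against 7.11 and 4.41 in cTreg. Itga1 had 6 of 14 peaks higher in eTreg than in cTreg and 9 higher in Teff than in Tnaive, with 0 lower in either. Itga2, also a collagen-binding chain, had 3 of 14 higher in each, near the share of all peaks (19.7% in Treg and 20.7% in conventional cells). Itgav had 12 of 17 peaks higher in each effector comparison and 0 lower. Its intragenic peak 37.9 kb from the listed start (chr2:83762082-83762482) scored 223 and 181 in eTreg against 12.4 and 11 in cTreg, and 114 and 94.9 in Teff against 0 and 10.4 in Tnaive. The log2 differences were 3.99 (adjusted p = 7.7e-06) in Treg and 4.96 (adjusted p = 2.5e-07) in conventional cells.

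At Itga4 and Itga9 most called peaks fell at the effector step. Itga4 had 6 of 16 peaks lower and 1 higher in eTreg, and 10 lower and 1 higher in Teff. At chr2:79238167-79238567 it scored 2.22 and 1.17 in eTreg against 23.1 and 23.1 in cTreg (log2 -3.19, adjusted p = 0.00025). Itga9, the gene with the most peaks (25), had 12 lower and 1 higher in eTreg, and 10 lower and 1 higher in Teff. Its peak at chr9:118686293-118686693 scored 4.43 and 4.68 in eTreg against 49.8 and 44.1 in cTreg (log2 -3.11, SE 0.52, adjusted p = 1.7e-05). The Itgam peak at chr7:128080078-128080478, 17.6 kb inside the gene, scored 0 and 1.17 in eTreg against 25.8 and 19.8 in cTreg (log2 -4.00, SE 0.46, adjusted p = 4.5e-08), and 9.58 and 6.85 in Teff against 58.7 and 73.9 in Tnaive (log2 -2.88). Itgam had peaks in both directions in Treg, 3 higher and 2 lower.

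Among beta chains, calls at Itgb1 were mainly higher and those at Itgb3 ran both ways. Itgb1 encodes the common partner of many alpha chains, and 5 of its 11 peaks were higher and 1 lower in eTreg than in cTreg. Its peak at chr8:128702707-128703107, 17.3 kb inside the gene, scored 51 and 59.7 in eTreg against 1.78 and 3.31 in cTreg (log2 4.02, SE 0.59, adjusted p = 2.4e-06). Its peak at chr8:128643034-128643434 scored 111 and 113 in Teff against 2.55 and 11.7 in Tnaive (log2 4.07, adjusted p = 3.3e-08). Itgb3, another partner of Itgav, had 5 of 14 peaks lower and 4 higher in eTreg, and 7 lower and 2 higher in Teff. Its highest-scoring peak, at chr11:104661088-104661488, scored 69.8 and 69.1 in eTreg, 66.2 and 105 in Teff, 408 and 442 in cTreg, and 567 and 542 in Tnaive. Both effector groups lay below both resting groups, with log2 differences of -2.60 in Treg (SE 0.27, adjusted p = 2.7e-08) and -2.72 in conventional cells (SE 0.27, adjusted p = 8.5e-09).

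Cd44, the receptor for the matrix sugar hyaluronan, carried 8 higher and 3 lower peaks of 19 in eTreg, and 14 higher and 2 lower in Teff. Its upstream peak at chr2:102956938-102957338, 55.5 kb from the start, scored 736 and 689 in eTreg, 470 and 366 in Teff, 74.6 and 87.1 in cTreg, and 7.66 and 7.77 in Tnaive. The order of the 4 groups held without overlap of libraries, and the log2 difference was 3.13 in Treg (SE 0.22, adjusted p = 6.1e-12) and 5.58 in conventional cells (SE 0.22, adjusted p = 2e-17). A peak nearer the gene start, at chr2:102909441-102909841 and 8 kb upstream, ran the other way, with 60.9 and 56.2 in eTreg against 151 and 136 in cTreg (log2 -1.28, adjusted p = 3.5e-05). Icam2, a ligand of the β2 integrin of lymphocytes, scored 146 and 132 at chr11:106387885-106388285 in eTreg against 223 and 205 in cTreg (log2 -0.62, adjusted p = 0.0026). Icam1 had no called peak at this step.

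Of the positioning receptors, Gpr15 had 5 of 6 peaks higher and 0 lower in each effector comparison. Its highest-scoring peak, at chr16:58701813-58702213 and 16.9 kb downstream of the gene start, scored 945 and 1005.4 in eTreg, 778 and 650 in Teff, 165 and 186 in cTreg, and 66.4 and 64.8 in Tnaive. Effector libraries were the higher ones in both lineages, with log2 differences of 2.47 in Treg (adjusted p = 6.1e-09) and 3.42 in conventional cells (adjusted p = 5.8e-12). Ptger4, a receptor for prostaglandin E, had 5 of 10 peaks lower in eTreg than in cTreg and 0 higher. At chr15:5258402-5258802 it scored 7.76 and 10.5 in eTreg against 32.9 and 48.5 in cTreg (log2 -2.03, adjusted p = 0.0018). S1pr4, a sphingosine-phosphate receptor, had 1 peak, with scores over libraries from 165 to 779. In limma it was called in 0 of the 15 comparisons, with 1 at an unadjusted p under 0.05, and edgeR called it lower in eTreg than in cTreg.

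In inside-out activation, the Rasgrp2 promoter (chr19:6399467-6399867, overlapping the sequence shown) scored 73.1 and 98.3 in eTreg, 142 and 130 in Teff, 254 and 203 in cTreg, and 287 and 238 in Tnaive. The effector libraries lay below the resting ones, by a log2 difference of -1.41 in Treg (SE 0.22, adjusted p = 5.3e-06) and -0.94 in conventional cells (adjusted p = 0.00077). It was lower in eTreg than in Teff as well (log2 -0.67, adjusted p = 0.028). Apbb1ip, which links Rap1 to talin, had 4 of 15 peaks lower and 1 higher in eTreg, and Rap1a had 5 of 17 higher and 1 lower. The 3 peaks of Tln1 had 0 calls in limma over the 15 comparisons, 7 of 45 values at an unadjusted p under 0.05, and 1 lower with edgeR, with both factors against mock.

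The remaining genes described here had few peaks each, from 2 at Itgax and Fermt3 to 9 at Selplg. Their counts of calls were therefore small even where the share of a gene's peaks was not. For comparison, the whole set of 69316 peaks had 19.7% rising and 17.4% falling from cTreg to eTreg. From Tnaive to Teff, 19.6% of that set fell. Itgb2, the chain that lymphocyte and myeloid integrins share, had 2 of 8 peaks higher and 1 lower in eTreg than in cTreg. Itgal, its alpha partner on lymphocytes, had 1 of 5 higher in that comparison, Itga7 3 of 4, Itgax 1 of 2 and Itga5 0 of 4 with 1 lower. Itgb7, the partner of the chains of Itga4 and Itgae, had 4 peaks and no call in Treg but 1 higher with both factors than with mock in DKO cells. The Itgb6 peak at chr2:60711470-60711870 scored 16.9 and 28.7 in cTreg against 2.55 and 2.59 in Tnaive (log2 2.69, adjusted p = 4.7e-05), and Itgb5 had 1 of 3 peaks higher in WT Treg than in Tconv. Selplg, the ligand of selectins, had 1 of 9 peaks higher in WT Treg than in Tconv and 1 lower in eTreg than in cTreg. Gpr183, an oxysterol receptor that guides cells within lymphoid tissue, had 3 of 5 peaks lower in Teff than in Tnaive, and Fermt3 had 1 of 2 higher in eTreg than in cTreg.

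**Figure D3:**
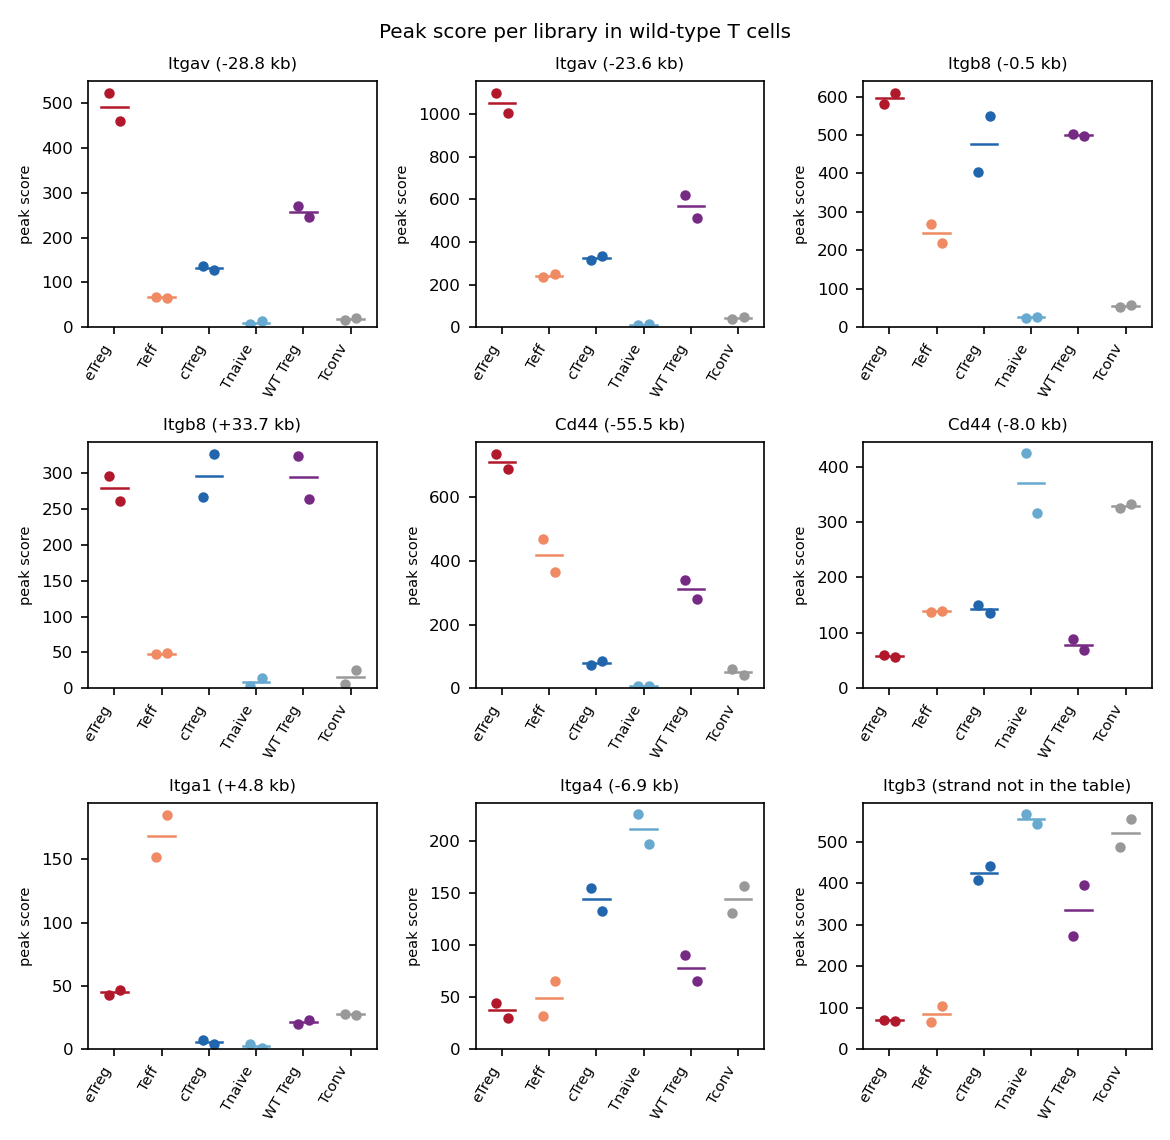
Scores of 9 member peaks in eTreg, Teff, cTreg, Tnaive, WT Treg and Tconv, with each library as a point and the group mean as a line. The distal Cd44 peak has eTreg highest and Tnaive lowest, and the Itga4 and Itgb3 peaks are lower in eTreg than in cTreg and lower in Teff than in Tnaive.

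**Figure D4:**
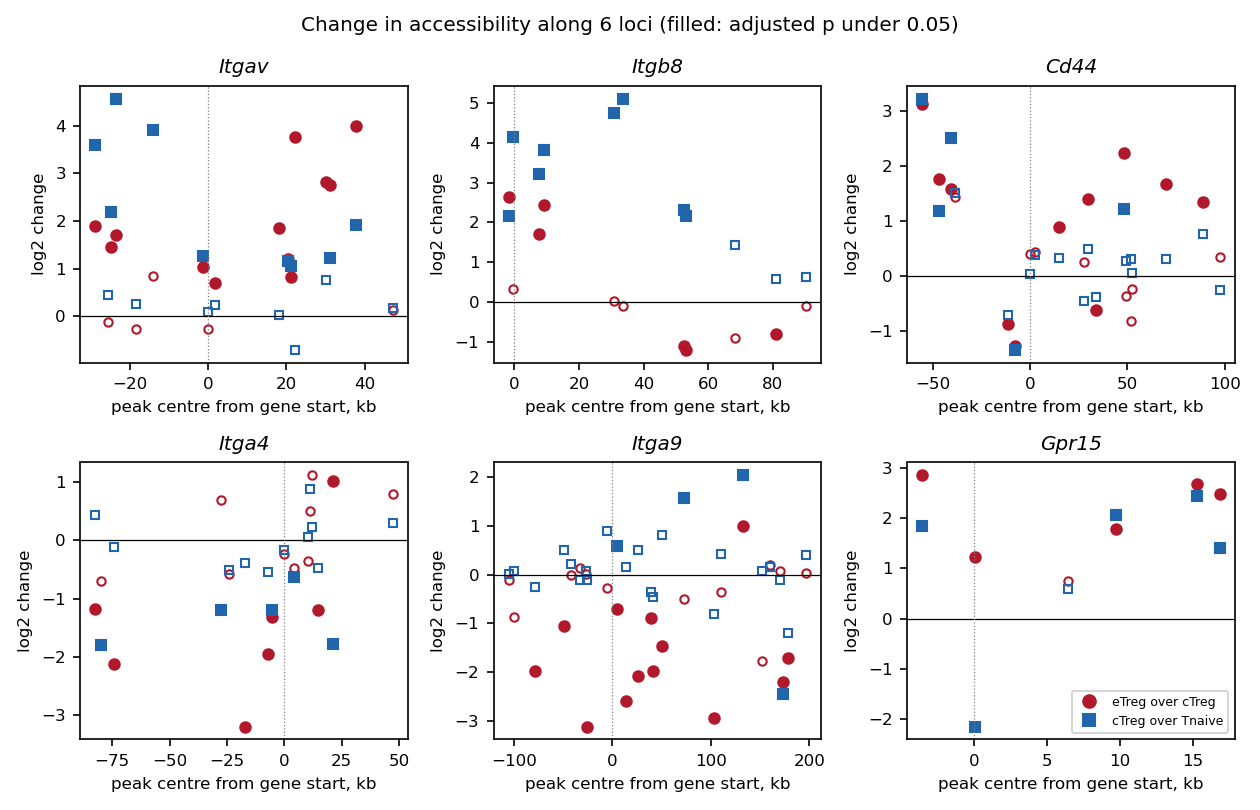
Log2 difference of every peak at Itgav, Itgb8, Cd44, Itga4, Itga9 and Gpr15 against its distance from the gene start in kb; circles are eTreg over cTreg, squares cTreg over Tnaive, and filled symbols are called. At Itgav and Gpr15 the called circles lie above 0, and at Itga9 12 of 13 lie under 0. The Itga9 start used lies inside the gene body, so its peaks plotted as upstream are also in the gene body.

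The effector step of Treg was set against that of conventional cells as a difference of the 2 changes. Of the members 2 peaks (0.692%, beside 1.18% of all peaks) had a more positive and 12 (4.15%, beside 2.72%) a more negative step in Treg, 4.84% in all, beside 3.91%. At the Itgb8 peak just upstream of the gene (chr12:119238594-119238994), the scores were 582 and 610 in eTreg against 403 and 549 in cTreg, and 268 and 220 in Teff against 24.3 and 27.2 in Tnaive. Treg libraries were high in both states and conventional cells were high only as effectors, and the steps differed by -2.85 (SE 0.27, adjusted p = 9.2e-08). The Itgav peak 23.6 kb upstream scored 1098 and 1005.4 in eTreg and 234 and 249 in Teff, against 314 and 333 in cTreg and 10.2 and 15.5 in Tnaive, and its steps differed by -2.46 (SE 0.32, adjusted p = 1.1e-05). The Cd44 peak 55.5 kb upstream differed by -2.45 (SE 0.31, adjusted p = 7.3e-06). The same direction was called at 4 other alpha chains, of which 1 peak each is given: Itga1 (chr13:115131330-115131730, -4.02, adjusted p = 0.013), Itga9 (chr9:118843673-118844073, -3.40, adjusted p = 0.00027), Itga6 (chr2:71771725-71772125, -3.04, adjusted p = 0.021) and Itga2 (chr13:114878671-114879071, -2.93, adjusted p = 0.0027). The call at Itga6 was lost with edgeR, with quantile scaling, against a 1.5-fold change, in a fit of only these groups, and without replicate 1 of eTreg, Teff, cTreg or Tnaive. At that Itga9 peak Teff scored 125 and 92.9 against 6.39 and 2.59 in Tnaive, and eTreg 35.5 and 48 against 20.4 and 19.8 in cTreg.

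The 2 peaks with a more positive step in Treg were at Itgae and at the Gpr15 promoter. Itgae encodes CD103, which binds E-cadherin on epithelium, and its peak at chr11:73090339-73090739 scored 14.4 and 19.9 in eTreg, 1.74 and 1.96 in Teff, 4.44 and 0 in cTreg, and 2.55 and 3.89 in Tnaive. This peak lies across the boundary of the gene body at 73090505. The eTreg libraries were the highest and the other 6 were at 4.44 or lower, and the steps differed by 3.49 (SE 0.99, adjusted p = 0.04). This call was lost with edgeR, against a 1.5-fold change, in a fit of only these groups, with the replicate block, and when any library of the 4 groups other than cTreg replicate 1 was left out. The Gpr15 promoter peak scored 55.4 and 72.6 in eTreg against 22.2 and 32 in cTreg (log2 1.22, adjusted p = 0.0051), and 68.8 and 92 in Teff against 130 and 113 in Tnaive (log2 -0.60, adjusted p = 0.17). The steps there differed by 1.82 (SE 0.48, adjusted p = 0.026).

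Loss of BATF in Treg changed few member peaks. BATFKO against WT Treg gave 1 higher peak (0.346%, beside 0.062% of all peaks) and 9 lower (3.11% beside 1.43%), 3.46% in all beside 1.49%, of which Gpr15 held 4, Cd44 2, and Itgb3, Apbb1ip and Itgb1 1 each among the lower. The integrin alpha chains, with 141 peaks, had 0 calls in limma, 8 at an unadjusted p under 0.05, and 1 lower with edgeR. All 9 lower peaks were among those higher in eTreg than in cTreg, which is 100% of the 9 and 12.5% of the 72, beside 93.5% and 6.79% over all peaks. The count was 3 without WT Treg replicate 1 and 6 without BATFKO replicate 1.

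The largest change among these 10 calls was at the Gpr15 peak 16.9 kb from the start, with 51.5 and 56.8 in BATFKO against 615 and 422 in WT Treg. The BATFKO libraries lay below Tconv as well (116 and 134), and the log2 difference from WT Treg was -3.21 (SE 0.25, adjusted p = 1.2e-09). Its promoter peak scored 20.5 and 13.9 in BATFKO against 53.8 and 36.7 in WT Treg (log2 -1.35, adjusted p = 0.034). Over its 6 peaks Gpr15 summed to 243 ± 3.72 in BATFKO and 848 ± 204 in WT Treg (SD, n = 2 each). The Itgb3 peak at chr11:104622529-104622929 scored 3.32 and 11.4 in BATFKO against 45.2 and 52.1 in WT Treg (log2 -2.76, SE 0.37, adjusted p = 2.4e-05). The intragenic Apbb1ip peak 83.4 kb from the listed start (chr2:22857481-22857881) scored 13.8 and 18.9 in BATFKO against 80.7 and 51 in WT Treg (log2 -1.92, adjusted p = 0.011). At each of these peaks the BATFKO libraries lay below both WT Treg libraries. This was a condition for naming the Itgb3 and Apbb1ip peaks and the Gpr15 peak 16.9 kb from the start. The distal Cd44 peak scored 102 and 136 in BATFKO against 340 and 282 in WT Treg (log2 -1.38, adjusted p = 0.00019), and the Itgav peak 28.8 kb upstream 173 and 203 against 270 and 245 (log2 -0.45, adjusted p = 0.63). The single higher peak was the Itgb1 promoter (chr8:128685431-128685831), whose sequence is shown, with 374 and 373 in BATFKO against 226 and 231 in WT Treg (log2 0.71, SE 0.17, adjusted p = 0.028).

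R397W Treg against their control gave 1 higher member peak (0.346%, beside 0.776% of all peaks) and 11 lower (3.81% beside 1.85%), 4.15% in all beside 2.63%. The lower ones were 4 at Itgav, 3 at Itgb1, 2 at Itgb8, 1 at Itgae and 1 at Cd44. None of the 22 positioning receptor peaks and none of the 40 inside-out activation peaks was called in limma. At an unadjusted p under 0.05 there were 6 and 4 of them, and with edgeR 3 of each, 1 higher and 2 lower at positioning receptors and 3 lower at inside-out genes. The count was 6 and 4 without R397W replicates 1 and 2, and 2 and 7 without R397W control replicates 1 and 2, as numbered in the table. It was 40 with edgeR on reads recovered from the scores, and 38 in a limma fit of these groups alone.

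The Itgav peak 28.8 kb upstream scored 65.3 and 61.8 in R397W against 230 and 159 in R397W control, a log2 difference of -1.58 (SE 0.23, adjusted p = 0.00022). The Itgb8 peak 1.7 kb upstream (chr12:119239777-119240177) scored 9 and 4.94 in R397W against 64.5 and 42.8 in R397W control (log2 -2.80, SE 0.57, adjusted p = 0.0054). An Itgae peak (chr11:73100412-73100812) scored 3.94 and 2.82 in R397W against 29.3 and 14.7 in R397W control (log2 -2.33, adjusted p = 0.016). In all 3 the groups did not overlap and the R397W libraries were the low ones, which was a condition for naming these peaks. The Itgb1 peak 17.3 kb inside the gene scored 3.94 and 4.24 in R397W against 20.6 and 25.4 in R397W control (log2 -2.23, adjusted p = 0.032). Cd44 moved both ways, with 100 and 114 in R397W against 220 and 227 in R397W control at the distal peak (log2 -1.06, adjusted p = 0.006) and 106 and 132 against 45.6 and 60.2 at the peak 8 kb upstream (log2 1.16, adjusted p = 0.0034).

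BATFKO and R397W changes have different controls and protocols, ATAC-seq for BATFKO and omniATAC-seq for R397W, and were compared by the difference of the changes. In this test 1 member peak was called (0.346%, beside 0.14% of all peaks), the Gpr15 peak 16.9 kb from the start. It was among the lower calls (0.101% of all peaks), with 0 members among the higher (0.039% of all peaks). Quantile scaling gave 2 higher and 3 lower, and edgeR on recovered reads 5 higher and 3 lower. There R397W scored 101 and 127 against 195 and 214 in R397W control (log2 -0.84, adjusted p = 0.066), and the BATFKO change minus the R397W change was -2.37 on the log2 scale (SE 0.35, adjusted p = 0.0021). At the Itgav and Itgb8 peaks called in R397W the difference of the changes was not called in limma, while edgeR called it higher at 3 peaks of Itgav and 1 of Itgb8.

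Returning the factors to DKO cells gave 61 higher member peaks (21.1%, beside 12.9% of all peaks) and 33 lower (11.4% beside 10.5%) with both factors against mock, 32.5% in all beside 23.3%. BATF alone gave 15 higher (5.19% beside 3.2%) and 1 lower (0.346% beside 0.291%), 5.54% in all beside 3.49%. Foxp3 alone gave 5 higher (1.73% beside 1.01%) and 2 lower (0.692% beside 0.814%), 2.42% in all beside 1.82%. Both factors against BATF alone gave 38 higher (13.1% beside 7.08%) and 17 lower (5.88% beside 7.01%), 19% in all beside 14.1%. Both against Foxp3 alone gave 53 higher (18.3% beside 10.6%) and 23 lower (7.96% beside 7.54%), 26.3% in all beside 18.1%. The comparisons against mock share the mock libraries, so the values of each are given side by side. Foxp3 alone gave 13 calls without Foxp3 replicate 1, 2 without Foxp3 replicate 2, 11 without mock replicate 1 and 3 without mock replicate 2, and quantile scaling gave 2 higher and 0 lower. BATF alone gave 9 without BATF replicate 1 and 8 without mock replicate 2. Both against BATF alone gave 31 and 24 without BATF replicates 1 and 2, and 32 and 34 without replicates 1 and 2 of both factors. Both against Foxp3 alone gave 50 without replicate 2 of both factors.

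Among alpha chains, Itgav had 10 of 17 peaks higher with both factors than with mock. The peak 28.8 kb upstream scored 287 and 335 with both factors, 90.3 and 94.1 with BATF, 187 and 243 with Foxp3, and 85.4 and 103 with mock. Libraries with Foxp3, alone or with BATF, were above the rest, and the log2 difference from mock was 1.72 with both (adjusted p = 1.3e-06), -0.02 with BATF (adjusted p = 0.99) and 1.18 with Foxp3 (adjusted p = 0.0058). An intragenic Itgav peak 18 kb from the listed start (chr2:83742204-83742604) scored 17.5 and 19.6 with both, 13.6 and 16.3 with BATF, 14 and 15.3 with Foxp3, and 2.11 and 1.96 with mock. Here each factor alone was above mock, with log2 differences of 2.39 for BATF (SE 0.41, adjusted p = 0.00027) and 2.37 for Foxp3 (SE 0.41, adjusted p = 0.002). The Itga3 peak at chr11:95082853-95083253 scored 125 and 207 with both, 12.4 and 25 with BATF, 10.8 and 20 with Foxp3, and 9.49 and 10.8 with mock (both against mock, log2 3.87, SE 0.68, adjusted p = 7.2e-05). The Itga6 peak at chr2:71771122-71771522, at a gene for a laminin receptor chain, scored 31.1 and 32.2 with both against 1.05 and 0.978 with mock (log2 4.02, adjusted p = 0.00022).

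Itgae and Itgam each had 5 peaks higher with both factors than with mock. The Itgae peak at chr11:73090339-73090739 scored 146 and 128 with both, 14.8 and 30.7 with BATF, 35.5 and 36.8 with Foxp3, and 16.9 and 2.93 with mock (both against mock, log2 4.04, SE 0.70, adjusted p = 6e-05). The Itgam peak at chr7:128067157-128067557 scored 57.3 and 76 with both, 7.42 and 9.6 with BATF, 7.53 and 10.7 with Foxp3, and 4.22 and 8.8 with mock. Both factors were above either alone, by a log2 difference of 2.83 against BATF (adjusted p = 0.00032) and 2.74 against Foxp3 (adjusted p = 0.00025). Summed over 10 peaks, Itgam scored 875 ± 163 with both against 373 ± 93.4 with mock (SD, n = 2 each). Itgam and Itgad are also myeloid genes. The summed score of the myeloid markers was 757 to 789 with both against 602 to 672 with mock. By gene, the group means with both and with mock were 666 and 524 for Spi1 and 16.7 and 4.48 for Lyz2. Cd14 went the other way, with 89.9 against 108. The summed score of Pax5 was 393 to 442 with both against 182 to 191 with mock. The part of these marker genes in the result was not tested. Itga4 went the other way at its peak 6.9 kb upstream (chr2:79248288-79248688), with 14.6 and 24.2 with both against 35.8 and 58.7 with mock (log2 -1.24, adjusted p = 0.0029).

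Among beta chains, the Itgb8 peak 1.7 kb upstream scored 74.8 and 74.8 with both, 6.19 and 6.72 with BATF, 20.4 and 16.9 with Foxp3, and 9.49 and 0.978 with mock. The Foxp3 libraries lay above mock and well below both factors, and the log2 difference from mock was 4.06 with both (adjusted p = 2.9e-06) and 2.10 with Foxp3 (adjusted p = 0.049). The Itgb3 peak at chr11:104622529-104622929 scored 330 and 342 with both, 235 and 214 with BATF, 9.68 and 6.14 with Foxp3, and 23.2 and 19.6 with mock. BATF libraries with or without Foxp3 were the high ones, at a log2 difference from mock of 3.92 with both (adjusted p = 5.1e-09), 3.34 with BATF (adjusted p = 5e-07) and -1.35 with Foxp3 (adjusted p = 0.056). The Itgb1 peak 17.3 kb inside the gene scored 37.9 and 16.1 with both, 12.4 and 14.4 with BATF, and 2.11 and 0 with mock, and was higher than mock with both (log2 3.87) and with BATF (log2 3.02, adjusted p = 0.0012).

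At Gpr15 the peak 16.9 kb from the start scored 233 and 477 with both, 224 and 337 with BATF, 25.8 and 29.2 with Foxp3, and 27.4 and 38.1 with mock. The log2 difference from mock was 3.33 with both (SE 0.25, adjusted p = 5.3e-11), 3.05 with BATF (SE 0.25, adjusted p = 1.4e-09) and -0.23 with Foxp3 (adjusted p = 0.78). The distal Cd44 peak scored 660 and 987 with both, 320 and 406 with BATF, 215 and 173 with Foxp3, and 139 and 146 with mock. It was higher than mock with both (log2 2.49, adjusted p = 9.9e-10) and with BATF (log2 1.34, adjusted p = 0.00016), and the difference with Foxp3 was 0.44 (adjusted p = 0.38). The intragenic Apbb1ip peak 83.4 kb from the listed start scored 145 and 121 with both, 87.8 and 49.9 with BATF, 18.3 and 12.3 with Foxp3, and 19 and 10.8 with mock (BATF against mock, log2 2.13, adjusted p = 0.0018).

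The sum of the separate effects on the log2 scale was set against the effect of both factors. Of the members 2 peaks exceeded the sum (0.692%, beside 0.586% of all peaks) and 0 fell short of it in limma (0.506% of all peaks), the total being 0.692% beside 1.09%. With edgeR 2 exceeded it and 0 fell short, and in limma 39 peaks differed in either direction at an unadjusted p under 0.05. At the Cd44 peak 38.7 kb upstream (chr2:102940160-102940560) the scores were 36.9 and 46.1 with both, 4.95 and 9.6 with BATF, 0 and 1.53 with Foxp3, and 8.43 and 2.93 with mock, an excess of 4.35 (SE 0.95, adjusted p = 0.023). Of this excess, 2.41 is the log2 difference of both factors from BATF alone. The rest comes from Foxp3 libraries below mock, where a single read was worth 1.08 and 1.53 in the Foxp3 libraries. At the Itgam peak 11.8 kb upstream (chr7:128050664-128051064) the scores were 258 and 446 with both, 59.4 and 96 with BATF, 68.8 and 93.6 with Foxp3, and 53.8 and 115 with mock, an excess of 2.13 (SE 0.49, adjusted p = 0.031). The count of 2 became 4 without Foxp3 replicate 1, 0 without replicate 2 of both factors, and 1 without BATF replicate 1, mock replicate 1 or mock replicate 2.

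**Figure D5:**
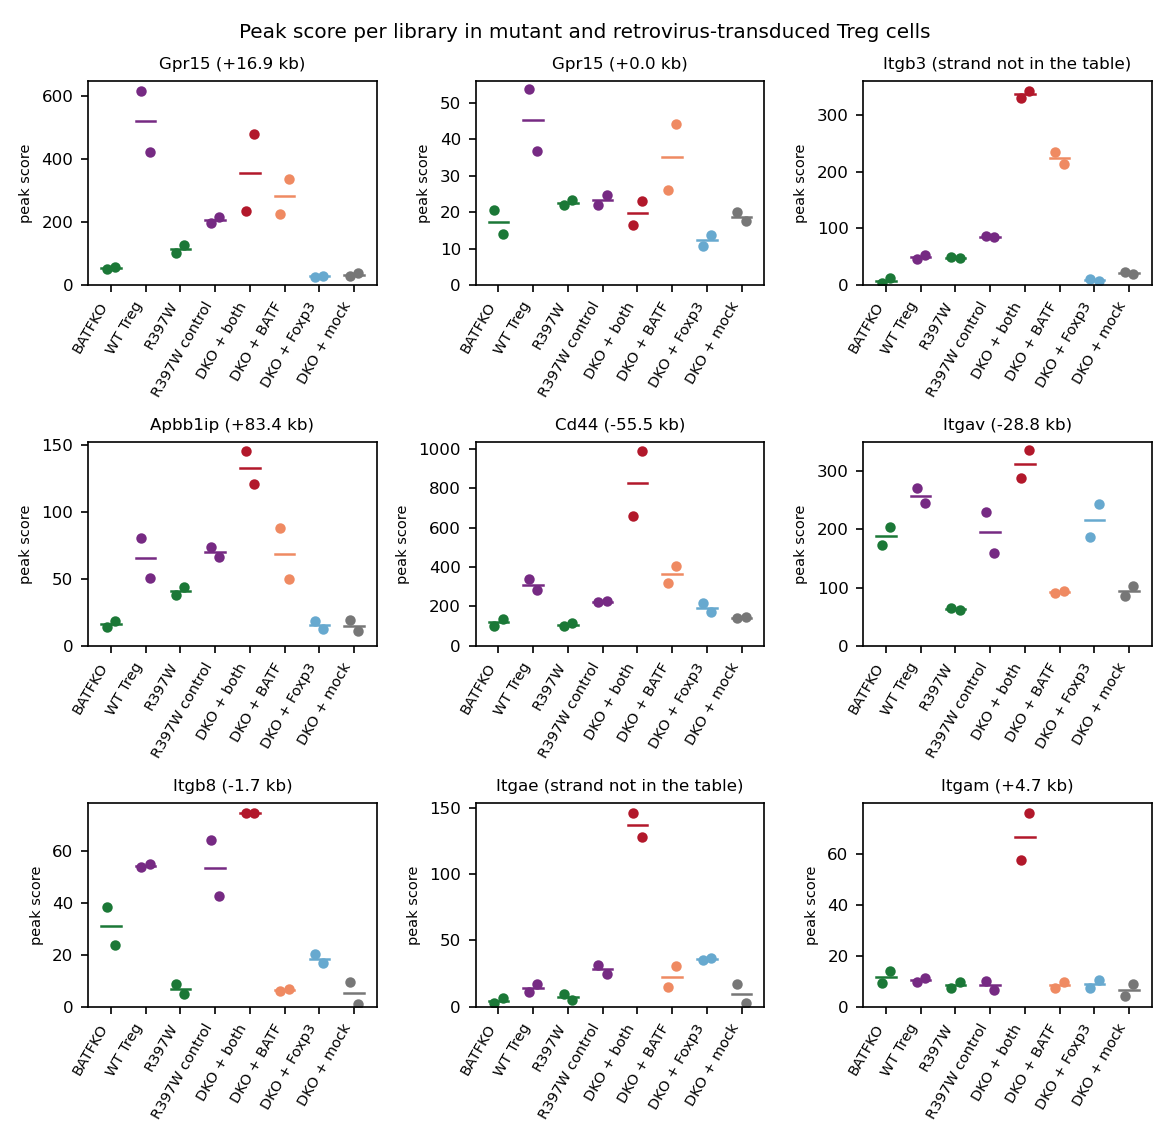
Scores of 9 member peaks in BATFKO and WT Treg, R397W and R397W control, and DKO cells with both factors, BATF, Foxp3 or mock, with each library as a point and the group mean as a line. The distal Gpr15 peak is low in BATFKO and with Foxp3 or mock, and the distal Itgav peak is low in R397W and with BATF or mock.

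Loss and return of a factor were compared where no library was shared. Of the 9 member peaks lower in BATFKO, 6 were higher with BATF in DKO cells than with mock, 66.7% of the 9 and 40% of the 15, beside 74% and 33% over all peaks. They were 2 at Gpr15, 2 at Cd44, 1 at Itgb3 and 1 at Apbb1ip. Of the 11 peaks lower in R397W, 3 were higher with Foxp3 alone than with mock, 27.3% of the 11 and 60% of the 5, beside 11.7% and 21.4% over all peaks. They were the Itgav peak 28.8 kb upstream and 2 Itgb8 peaks. Of the same 11 peaks, 7 were higher with both factors than with BATF alone, 63.6% of the 11 and 18.4% of the 38, beside 51.9% and 13.6% over all peaks.

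Peaks at listed gene starts were counted apart. The listed start of any gene was used, so some of these member peaks lie at the start of a gene that is not a member. Among members, starts were listed for 24 of the 34 genes, so the other peaks include some at gene boundaries of members without a listed start. Of the 24 member peaks that overlap a listed start of any gene, 8 (33.3%) were called in eTreg against cTreg, against 119 of the other 265 (44.9%), beside 19.3% and 39.8% over all peaks. In Teff against Tnaive 14 of the 24 (58.3%) and 121 of the 265 (45.7%) were called, beside 23.1% and 43% over all peaks. The median score over libraries was 221 at listed gene starts and 53.2 at the other peaks.

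The remaining genes of the pathway, a list of 48 for integrin signalling and adhesion, had 506 peaks at 45 of them. In eTreg against cTreg 76 of the 506 peaks were higher and 129 lower, 40.5% in all beside 37.1% of all peaks. In Teff against Tnaive 107 were higher and 121 lower, 45.1% beside 40.3%. In WT Treg against Tconv 66 were higher and 42 lower, 21.3% beside 20%. In BATFKO against WT Treg 1 was higher and 9 lower, 1.98% beside 1.49%, and in R397W against R397W control 2 were higher and 9 lower, 2.17% beside 2.63%. With both factors against mock 69 were higher and 73 lower, 28.1% beside 23.3%.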

How the data were processed

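The 26-library table holds normalised peak scores, a signal that the authors deposited for 69316 peaks on mm10. The aligner Bowtie2 2.4.1, edgeR (3.38.4 and 3.36.0), DiffBind (3.4.11 and 3.0.15) and the peak caller MACS2 2.2.7.1 are named per the submitters' processing notes, and what each was used for is not given in the sources used here. Scores are whole multiples of the worth of a read, so whole reads could be recovered within 0.02 reads in every value, and 1 read sets the precision of low scores. No per-sample column of this table was left unused; the 22-library table served for names and an alternative. Foxp3KO groups were not analysed here.

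Peaks were joined to genes with bedtools 2.31.1 and a RefSeq gene table. With limma 3.58.1 in R 4.3.3, 1 model over 13 groups (13 residual degrees of freedom, trend and robust settings) was fitted to log2(score + 1), with Benjamini-Hochberg adjustment over 69316 peaks; the difference of changes and the departure from additive effects are contrasts of the same fit. Alternatives were a pseudocount of 5, a mean score of at least 10, quantile scaling, only the groups compared, a 1.5-fold null, edgeR 4.0.16, a replicate block and leaving out each library. On simulated data for eTreg against cTreg, over 69316 peaks, 48 of 100 peaks changed 2-fold and 100 of 100 changed 4-fold were called, with 9 false calls.

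The 34 genes and the lists were chosen with earlier results of these data known. For each comparison between groups, peaks named are called member peaks whose groups do not overlap, ranked by log2 difference with 1 per gene and direction, up to 8 per direction, or 5 for differences of changes; to these come the highest-scoring peak of each gene and peaks already described. Lack of overlap between the groups at a peak named by this rule therefore follows from the selection. Sequences are from RefSeq on GRCm38.p6.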

Additional observations from a re-analysis of the deposited data

Results flagged for a closer look

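Several member peaks changed by a different amount in 2 settings under the same contrast, each tested as a difference of changes with limma and Benjamini-Hochberg adjustment over all peaks. Between the effector step in Treg and that in conventional cells, the difference was 3.49 at the Itgae peak chr11:73090339-73090739, a call lost with edgeR, with the replicate block and without any 1 library other than cTreg replicate 1, and 1.82 at the Gpr15 promoter peak chr16:58718646-58719046. It was -4.02 at the Itga1 peak chr13:115131330-115131730, where eTreg scored 13.3 and 5.85 against 5.33 and 4.41 in cTreg, and Teff 75.8 and 108 against 3.83 and 1.3 in Tnaive. It was -3.40 at Itga9 (chr9:118843673-118844073) and -3.04 at Itga6 (chr2:71771725-71772125), a call lost with edgeR, with quantile scaling and without replicate 1 of any of the 4 groups. It was -2.93 at Itga2 (chr13:114878671-114879071), where eTreg scored 36.6 and 28.1 against 18.7 and 22 in cTreg, and Teff 88 and 70.4 against 6.39 and 5.18 in Tnaive. It was -2.85 at the Itgb8 peak just upstream of the gene. Between BATFKO and R397W the change at the Gpr15 peak 16.9 kb from the start differed by -2.37. In DKO cells both factors together departed from the sum of the separate effects by 4.35 at the Cd44 peak 38.7 kb upstream and by 2.13 at the Itgam peak 11.8 kb upstream. At that Cd44 peak part of the departure comes from Foxp3 libraries below mock. The groups hold 2 libraries each, so no sample was looked at for standing apart from its group.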

How the results depend on the processing

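Of 1796 values of named peaks over the alternatives within the 26-library table, 1540 kept direction and side of the threshold, 256 kept direction and missed the threshold, and 0 changed direction. In the 22-library table, 22 of 22 named values had the same direction where the names matched. Where names differed, a comparison of the same name was made of other libraries in whole or in part. There 23 values had the same and 47 the other direction, and they do not measure an effect of processing. Counts of called member peaks moved by over 1.5 times as follows, and the cause was not tested unless it lies in how an alternative is built. Against a 1.5-fold change, counts were 28 (WT Treg against Tconv), 65 (eTreg against cTreg), 80 (Teff against Tnaive), 35 (cTreg against Tnaive), 21 (eTreg against Teff), 5 (difference of effector steps), 2 (BATFKO), 0 (R397W), 0 (BATFKO change minus R397W change), 0 (Foxp3), 8 (BATF), 41 (both against mock), 9 (both against BATF), 21 (both against Foxp3) and 0 (departure). With the names of the 22-library table, and so with other libraries in whole or in part, they were 21, 22, 0, 0 and 0 for eTreg against cTreg, Teff against Tnaive, cTreg against Tnaive, eTreg against Teff and the difference of steps, 129 for R397W and 66 for BATFKO change minus R397W change. Quantile scaling gave 16 for BATFKO, 5 for BATFKO change minus R397W change, 2 for Foxp3 and 1 for the departure, and turned eTreg against cTreg to 62 higher and 66 lower. Only the groups compared gave 22 for the difference of steps, 38 for R397W, 1 for Foxp3 and 0 for the departure. A pseudocount of 5 gave 23, 2 and 7 for the difference of steps, BATFKO change minus R397W change and the departure, edgeR 40 for R397W and 8 for BATFKO change minus R397W change, and a mean score of at least 10 gave 1 for the departure.

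Leaving out each library gave 50 to 58 for WT Treg against Tconv, 36 to 44 for eTreg against Teff, 3 to 8 for BATFKO, 2 to 7 for R397W, 1 to 2 for BATFKO change minus R397W change, 2 to 13 for Foxp3, 8 to 15 for BATF, 24 to 34 for both against BATF, 50 to 62 for both against Foxp3 and 0 to 4 for the departure. It left the counts at 93 to 103 for eTreg against cTreg, 106 to 111 for Teff against Tnaive, 54 to 57 for cTreg against Tnaive, 63 to 85 for both against mock and 10 to 14 for the difference of steps. Where an arm kept 1 library, it was taken to vary like the other groups. The labels do not say that a replicate number marks a shared animal, batch or day. Deviations of same-numbered libraries from their group means correlated at 0.043 to 0.078 between the WT groups compared, at 0.162 for BATFKO and at 0.147 to 0.215 for DKO cells, where replicate 2 scored higher than replicate 1 at the Foxp3 peak in all 4 groups. With the replicate block, counts were 88 for WT Treg against Tconv, 127 for eTreg against cTreg, 139 for Teff against Tnaive, 10 for BATFKO and 97 for both against mock, no count moved by over 1.5 times, and 152 of 154 named values kept their call, the exceptions being the Itgae difference of steps and an Itgb8 peak in Foxp3 against mock. R397W was fitted without a block: the labels number its libraries 1 and 2 and those of its control 3 and 4. By the numbers in the table's column names the correlation was 0.327. In simulated data for eTreg against cTreg, 48 of 100 peaks with a 2-fold change were called. Few simulated peaks changed, all with a mean score above the median, while 37.1% of all peaks were called in the measured comparison. The adjusted p threshold was therefore stricter in the simulation, which does not give the smallest change detectable here.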
